A study of Mus musculus with 6 samples.

Results

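A set of 10 genes of elastic fibres and of the enzymes that crosslink elastin and collagen were followed in cultured adherent bone marrow cells from young and old mice. They are 10 of the 39017 gene identifiers in the count table, taken by name: elastin (Eln), the fibrillins Fbn1 and Fbn2, the fibulins Fbln1, Fbln2 and Fbln5, and the lysyl oxidases Lox, Loxl1, Loxl2 and Loxl3. There were 3 libraries from young mice of 3 weeks and 3 from old mice of more than 78 weeks, all wild-type (WT) BALB/c, an inbred strain. Marrow from crushed limb bones was plated, non-adherent cells were removed, and the adherent cells, labelled as bone marrow derived macrophages positive for F4/80 and CD169, were expanded in serum-containing medium. Each library was made from the RNA of 10000 cells. The labels do not tie the libraries to individual mice, so each p-value here rests on library-to-library spread that may be technical.

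Elastic fibres give arteries, lung and skin their recoil. Tropoelastin, the soluble product of Eln, is deposited on a scaffold of fibrillin microfibrils, fibulins help to bring elastin, microfibrils and crosslinking enzymes together, and lysyl oxidases oxidise lysines so that elastin or collagen chains join covalently. In bone, where fibrillar collagen is the main protein, lysyl oxidases chiefly crosslink collagen, and fibrillins also hold growth factors of the TGF-beta and BMP families in the matrix.

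All 10 genes were detected in all 6 libraries, and all 10 passed the filter on low counts. With edgeR's quasi-likelihood test and Benjamini-Hochberg adjustment, only Fbn2 was called different between the ages, lower in old libraries, so 1 of 10 genes fell and 0 rose. Over all 15567 genes tested, 10.5% were called, 5.84% higher and 4.7% lower, so the count for the 10 genes is near the background. At an unadjusted p under 0.05 there were 3 genes with edgeR (Fbn2, Loxl1 and Loxl3), the DESeq2 test called Fbn2 and Loxl3, and limma-voom called Fbn2. Young and old libraries were fully separated in CPM for 2 genes, Fbn2 (old below) and Loxl3 (old above), as they were for 30.2% of genes tested, 15.9% with old above and 14.3% with old below. The median log2 fold change, old minus young, was 0.01 over the 10 genes and -0.01 over all genes tested.

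Total counts were 34391206 to 43367734 per library. The macrophage genes Adgre1 (F4/80) and Siglec1 (CD169) were at 197 to 530 CPM and 37.9 to 139 CPM, while Col1a1, which encodes a type I collagen chain of connective tissue cells, was at 10920 to 36658 CPM. CPM is the count scaled to the size of its library. Summed over 12 macrophage markers, the level was 3149 to 3345 CPM in young and 1886 to 2071 CPM in old libraries, with 10 of 12 lower in old. A sum over 12 stromal markers was 31074 to 69177 CPM in young and 23802 to 30010 CPM in old libraries, with 3 called higher and 2 lower. Without young replicate 3, 4 were called higher and 1 lower. Of 8 osteoblast markers tested, 4 were lower, and 4 of 8 smooth muscle and myofibroblast markers were higher. Omitting 1 library ended the call of Runx2 in 3 fits and of Sp7 in 2, while Dmp1 and Ibsp kept theirs. It ended the call of Cnn1 and of Tagln in 5 fits each, of Acta2 in 2 and of Actg2 in 1. Tagln shares 67.9% of its exon length with Gm48529 on the opposite strand. Summed endothelial markers were at 19.2 to 41.8 CPM over all libraries, with 0 of 7 called with edgeR (3 at an unadjusted p under 0.05, of which the DESeq2 test called Kdr and Vwf). Of 6 adipocyte markers, 4 were higher (Lpl, Fabp4, Pparg and Cebpa), while Adipoq and Plin1 were not called (adjusted p = 0.873 and 0.395). The Lpl call ended in 5 of the fits that omitted 1 library, and without the low-count filter (adjusted p = 0.061). Summed chondrocyte markers, mostly Col2a1, were at 557, 583 and 1776 CPM in young and 1331 to 1862 CPM in old libraries, so young replicate 3 lay with the old ones. Of these 5 markers tested, 1 was lower and 0 higher, and without young replicate 3 it was 1 lower and 1 higher, Col2a1. These are values of whole cultures, in which fewer cells of a type and less RNA per cell cannot be told apart, and the part of the marker shifts in the results below was not tested. Young replicate 3 stood apart from the other young libraries in many matrix genes, though not in all, so results are given with and without it.

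**Figure D1:**
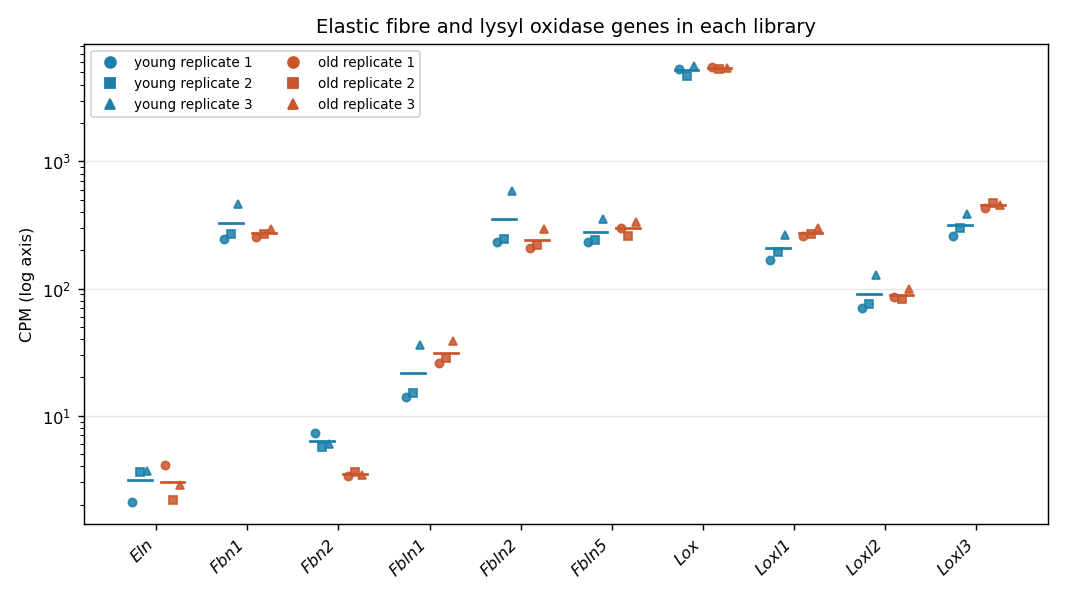
Level of each gene in CPM on a log axis, by library (blue, young; orange, old; marker shape gives the replicate), with a horizontal line at the mean of 3 libraries. Lox lies between 4676 and 5638 CPM, Eln and Fbn2 lie under 10 CPM, and Fbn2 and Loxl3 are the genes whose ages do not overlap.

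Elastin itself was scarce. Eln (ENSMUSG00000029675, chromosome 5, 134702593 to 134747323, mm10 build) encodes the elastic core protein of the fibre. Young replicates 1, 2 and 3 held 73, 128 and 123 Eln counts, or 2.08, 3.62 and 3.66 CPM, and old replicates 1, 2 and 3 held 178, 84 and 102, or 4.06, 2.181 and 2.83 CPM. The lowest library was young and the highest old, and the ranges overlapped almost entirely. Old over young, the log2 fold change came to -0.04 (SE 0.32, adjusted p = 0.959), and its 95% interval from -0.79 to 0.71 does not exclude a change of 1.5-fold in either direction. Leaving out 1 library moved it between -0.32 and 0.15, still without a call, and without young replicate 3 it was 0.09 (adjusted p = 0.903). Per kilobase of exon, Eln stood at 0.379 CPM on average, above 11.7% of the genes tested.

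The 5 genes whose log2 CPM followed Eln most closely over the 6 libraries, among 9203 with a mean of at least 10 CPM, were Rnf166, Haus2, Alkbh6, Dhdds and Txnrd2. Their Pearson correlations with Eln ran from 0.924 to 0.976 and were the highest of many, so they describe these libraries and carry no p-value. None of these genes was called between ages (adjusted p from 0.876 to 0.998). Like Eln, each was at its highest or second highest level in old replicate 1 and low in young replicate 1 and old replicate 2.

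The fibrillins differed in level and in their values across ages. Fibrillin-1 is the main microfibril protein of adult tissue, and fibrillin-2 is known mostly from development. Fbn1 (ENSMUSG00000027204, chromosome 2, 125300594 to 125507993) was at 246, 269.98 and 464 CPM in the young libraries, in replicate order, and at 256, 268 and 293 CPM in the old. Only young replicate 3 was far from the rest. Its log2 fold change came to -0.26 (SE 0.23, 95% interval from -0.81 to 0.28, adjusted p = 0.569), or to 0.08 when young replicate 3 was left out (adjusted p = 0.566). Of the exon length of Fbn1, 20.1% is shared with Gm9913 on the opposite strand, and the library kit does not mark the strand, so reads of that stretch cannot be told apart.

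Fbn2 (ENSMUSG00000024598, chromosome 18, 58008623 to 58210487) was read 202 to 254 times per young library and 123 to 148 times per old one. Its levels were 7.25, 5.71 and 6.03 CPM in the young libraries, in replicate order, against 3.38, 3.58 and 3.42 CPM in the old, so every young library lay above every old one. Fbn2 fell 1.83-fold (log2 fold change -0.87, SE 0.16, 95% interval from -1.26 to -0.49, adjusted p = 0.0175). The fold moved little when 1 library was left out, between -0.94 and -0.76 on the log2 scale. The call still ended when young replicate 1 or any old replicate was omitted, with adjusted p of 0.0591 to 0.077, and it held when young replicate 2 or 3 was (without the latter, log2 fold change -0.90, adjusted p = 0.0194). Fbn2 was the 1 gene of the 10 that was not at its highest young level in young replicate 3. It made up 1.15% to 2.86% of the fibrillin counts, and Fbn1 the remainder.

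Fibulins are secreted glycoproteins that sit at the interface of elastin, microfibrils and basement membranes, and fibulin-5 is needed for elastic fibre assembly. Fbln1 (ENSMUSG00000006369, chromosome 15, 85205949 to 85286535) was at 14.1, 15.02 and 36.3 CPM in young libraries and at 26.0, 28.5 and 38.5 CPM in old ones, again in replicate order. A pair of young libraries lay below all old ones, and the third young library reached the old range. With all libraries, its log2 fold change came to 0.51 (SE 0.37, 95% interval from -0.37 to 1.38, adjusted p = 0.486), and with young replicate 3 left out to 1.09 (adjusted p = 0.00984), so this 1 library decided whether Fbln1 was called.

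Fbln2 (ENSMUSG00000064080, chromosome 6, 91212455 to 91272540) was at 232, 244 and 589.5 CPM in the young libraries, the last being replicate 3, and at 209, 218 and 295 CPM in the old ones. Without that replicate the young values lay inside the old range. On leaving it out, the log2 fold change went from -0.56 (SE 0.36, adjusted p = 0.422) to 0.02 (adjusted p = 0.956). Fbln5 (ENSMUSG00000021186, chromosome 12, 101746565 to 101819055) was at 232, 242 and 355 CPM in young and 299.7, 261 and 335 CPM in old libraries, ranges that overlap. Fbln5 had a log2 fold change of 0.11 (SE 0.18, 95% interval from -0.31 to 0.53, adjusted p = 0.777), and of 0.33 without young replicate 3 (adjusted p = 0.0806). Of the counts of these 3 fibulins alone, Fbln1 held 2.95% to 5.76%.

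Promoters of 4 of the 10 genes matched the RefSeq table (GRCm38.p6), in 6 windows. The 2 windows that hold no annotated exon, from Fbln1 and Fbln5, are shown. Each is the 250 bases before a transcript start, 5′ to 3′, with capitals marking matches on either strand to GGGCGG (the GC box), TATAAA (a core promoter element), TGANTCA (bound by AP-1), GGAATG (bound by TEAD factors) or CAGACA (which holds the core bound by SMAD factors). The first is chr15:85205699-85205948 on the plus strand and the second chr12:101819120-101819369 on the minus strand.
Fbln1: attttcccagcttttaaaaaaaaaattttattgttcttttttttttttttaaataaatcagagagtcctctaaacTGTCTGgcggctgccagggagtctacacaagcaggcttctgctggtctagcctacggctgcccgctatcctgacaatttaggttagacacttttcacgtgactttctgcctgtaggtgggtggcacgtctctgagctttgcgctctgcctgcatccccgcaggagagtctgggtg
Fbln5: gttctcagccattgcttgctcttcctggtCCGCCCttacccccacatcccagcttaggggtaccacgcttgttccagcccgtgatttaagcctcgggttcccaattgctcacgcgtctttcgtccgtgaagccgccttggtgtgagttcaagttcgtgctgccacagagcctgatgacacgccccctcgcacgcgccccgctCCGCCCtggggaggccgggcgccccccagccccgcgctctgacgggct
The Fbln1 window shown held 1 match, to CAGACA, and the Fbln5 window shown held 2 matches, both to GGGCGG. Of 32851 promoter windows of the same length, 32.7% held GGGCGG, 12.4% TATAAA, 6.75% TGANTCA, 12.6% GGAATG and 17.1% CAGACA. GC content was 46.4% for the Fbln1 window shown and 65.2% for the Fbln5 window shown, against a median of 52.4%. Each of these genes has another window, before a different start, and its matches differed. That of Fbln1, with 59 exonic bases, was 62.4% GC and held 1 GGGCGG and 1 CAGACA. That of Fbln5, with 1 exonic base, was 49.6% GC and held 1 CAGACA and 0 GGGCGG. A match describes letters only.

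Lysyl oxidases are copper-dependent amine oxidases. Lox is the founding enzyme, Loxl1 is tied to elastin deposition, and Loxl2 and Loxl3 carry scavenger receptor domains before the shared catalytic domain. Lox was by far the most abundant gene of the 10, and its level varied little between libraries. Lox (ENSMUSG00000024529, chromosome 18, 52516067 to 52529867) was at 5311, 4676 and 5638 CPM in young libraries and at 5481, 5302 and 5381 CPM in old libraries. The old libraries lay inside the young range. For Lox the log2 fold change came to 0.05 (SE 0.10, adjusted p = 0.83), and its 95% interval from -0.18 to 0.28 excludes a change of 1.5-fold or more. Without young replicate 3 it was 0.11 (adjusted p = 0.376). Per kilobase it ranked 18 among the 15567 genes tested, and it held 86.3% to 91.4% of the counts of the 4 lysyl oxidases.

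Loxl3 (ENSMUSG00000000693, chromosome 6, 83034173 to 83052562) had levels of 259.6, 300.3 and 385 CPM in young libraries and of 431, 469 and 456 CPM in old ones. Every old library lay above every young one, and the mean went from 315 ± 63.8 to 452 ± 19.5 CPM (SD, n = 3). This difference (log2 fold change 0.52, SE 0.14, 95% interval from 0.19 to 0.86) missed the threshold at an adjusted p of 0.0635. It passed with the DESeq2 test (adjusted p = 0.00965) and without young replicate 3 (log2 fold change 0.69, adjusted p = 0.0025). Loxl3 shares 11.6% of its exon length with Htra2 on the opposite strand, which had 1941 to 2796 counts per library beside 9095 to 18870 for Loxl3.

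Loxl1 (ENSMUSG00000032334, chromosome 9, 58287738 to 58313186) was at 169, 194 and 263 CPM in young and at 259, 269.9 and 298 CPM in old libraries. Young replicate 3 overlapped the lowest old library, and the other young libraries were lower. Loxl1 had a log2 fold change of 0.40 (SE 0.16, 95% interval from 0.02 to 0.78, adjusted p = 0.188), and of 0.60 without young replicate 3 (adjusted p = 0.00635). Loxl2 (ENSMUSG00000034205, chromosome 14, 69609068 to 69695834) was at 70.4, 75.8 and 127 CPM in young and at 85.2, 82.4 and 99.8 CPM in old libraries, with young replicate 3 the highest of all. That gave a log2 fold change of -0.03 (SE 0.22, 95% interval from -0.56 to 0.50, adjusted p = 0.957), and of 0.29 without young replicate 3 (adjusted p = 0.109). Loxl4, the remaining enzyme of the family and no member of the 10, was at 9.08 to 23.8 CPM in young and 20.4 to 25.4 CPM in old libraries (log2 fold change 0.55, adjusted p = 0.37), and it was called higher without young replicate 3 (log2 fold change 1.00, adjusted p = 0.0175).

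**Figure D2:**
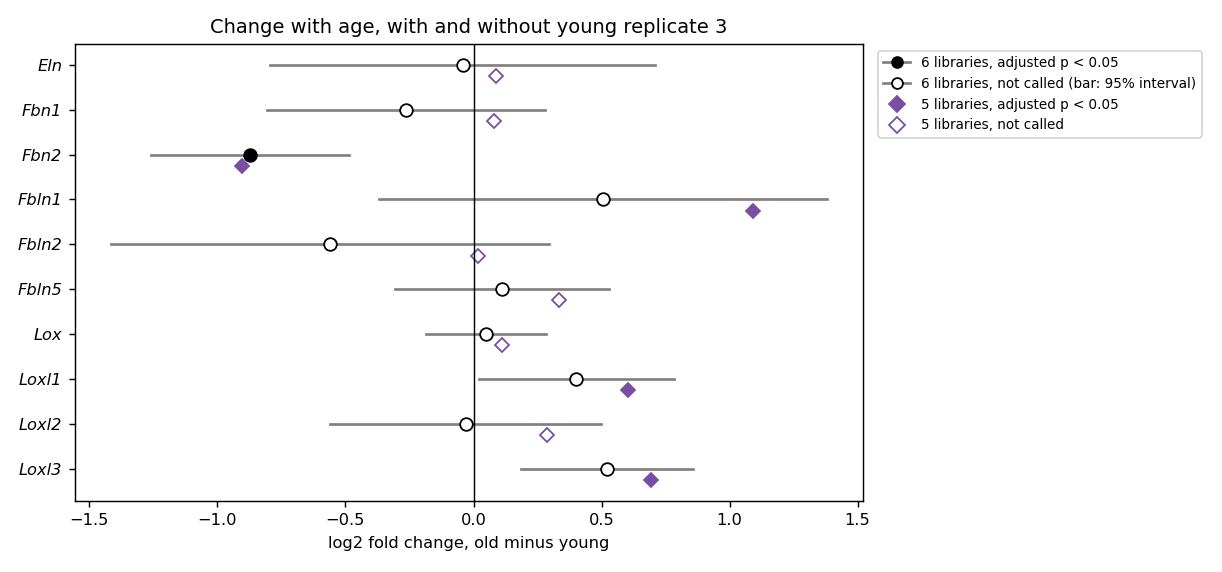
Log2 fold change, old minus young, of each gene. Circles are all 6 libraries with 95% intervals as bars, diamonds leave out young replicate 3, and filled symbols have an adjusted p under 0.05. With all libraries Fbn2 is filled at -0.87, and without young replicate 3 Fbln1, Loxl1 and Loxl3 are filled as well.

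Leaving out young replicate 3 gave more calls among the 10 genes than leaving out any other single library, each of which gave 0 or 1. Without it, 3 rose (Fbln1, Loxl1 and Loxl3) and 1 fell (Fbn2), where 16.5% of all genes tested were then called, 9.14% higher and 7.32% lower. In that library 9 of the 10 genes were at their highest young level, as were 39.9% of all genes tested. The ratio of young replicate 3 to the mean of the other young libraries was 2.49 for Fbln1, 2.48 for Fbln2, 1.80 for Fbn1, 1.74 for Loxl2, 1.13 for Lox and 0.931 for Fbn2. Over the 10 genes its median was 1.47, beside 1.00 over all genes tested. For other matrix genes chosen after their values were seen, the ratio was 2.03 for Col1a1, 2.47 for Col3a1 and 2.16 for Col5a1. It was 2.72 for Fn1 and 2.74 for Postn. Further matrix genes, also chosen by value, showed less excess or none, with 1.38 for Dcn, 1.205 for Mfap2 and 0.932 for Mfap5. For the macrophage genes Adgre1 and Csf1r the ratio was 0.744 and 1.05. Old libraries varied less: the coefficient of variation of CPM was 57.6% among young and 21.3% among old libraries for Fbln1, 36.6% and 7% for Fbn1 and 9.39% and 1.66% for Lox. Eln, with the fewest counts in most libraries, was the exception at 28.8% and 31.6%.

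**Figure D3:**
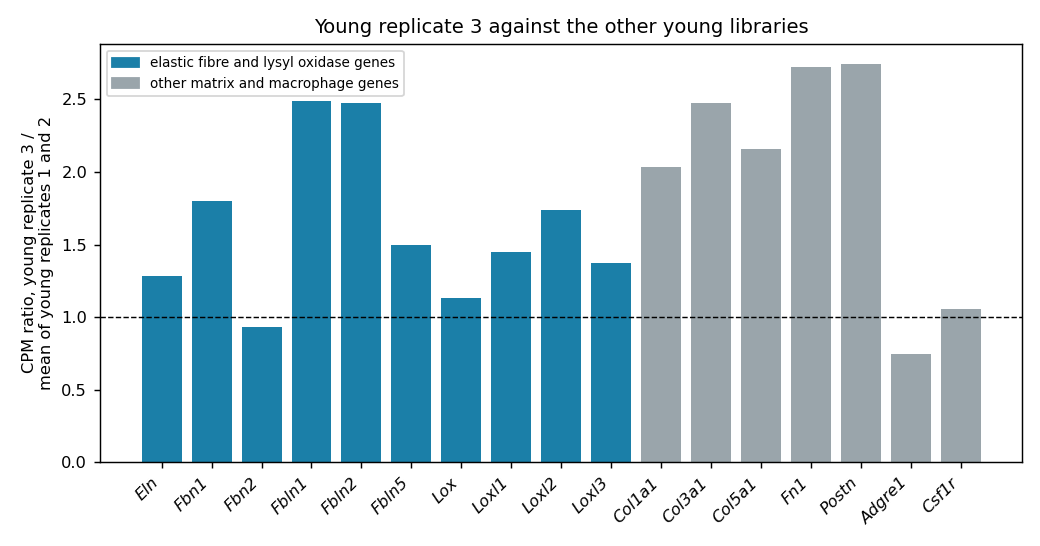
Ratio of CPM in young replicate 3 to the mean of young replicates 1 and 2, for the 10 genes (blue) and for other matrix and macrophage genes (grey). The dashed line marks equal levels. Fbln1 and Fbln2 stand near 2.5, close to Col3a1 at 2.47 and above Col1a1 and Col5a1, while Lox is at 1.13 and Fbn2 at 0.931.

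Levels per kilobase of exon put the genes in an order. In old libraries the order was Lox (1128 ± 18.8 CPM per kilobase, SD, n = 3), Loxl3 (98.2 ± 4.24), Loxl1 (83.6 ± 6.20), Fbln5 (43.2 ± 5.34), Fbln2 (37.8 ± 7.40), Fbn1 (22.4 ± 1.57), Loxl2 (16.5 ± 1.73), Fbln1 (7.09 ± 1.51), Eln (0.374 ± 0.118) and Fbn2 (0.262 ± 0.00829). Neighbours with overlapping values there were Fbln5 and Fbln2, and Eln and Fbn2. In young libraries Lox was again first at 1090 ± 102 CPM per kilobase, and Loxl3, Loxl1, Fbln2, Fbln5, Fbn1 and Loxl2 followed in a chain in which each overlapped the next. Fbln1 (4.99 ± 2.87), Fbn2 (0.479 ± 0.0613) and Eln (0.385 ± 0.111) came last, the latter pair overlapping.

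Set against the summed counts of the stromal markers, which are mostly type I collagen, 8 of the 10 genes had higher values in all old libraries than in any young one, as did 46.1% of all genes tested. The stromal markers did not move together. Pdgfra, Cxcl12 and Pdpn rose 2.35-fold, 2.57-fold and 2.19-fold, Lum and Lepr fell 8.79-fold and 1.66-fold, and 7 were not called. Without young replicate 3, Lum and Lepr were not called either (adjusted p = 0.0894 and 0.0575). The Lum call ended in 4 of the fits that omitted 1 library, while Pdgfra, Cxcl12 and Pdpn kept theirs in each. Ratios to any of these markers alone were not computed. Per 1000 counts of the 12 stromal markers, of which type I collagen was 74.8% to 85.3%, Lox stood at 154, 150.5 and 81.5 counts in the young libraries and at 230.3, 220.5 and 179 in the old ones. Loxl3 went from 7.58 ± 2.05 to 17.6 ± 2.19, Loxl1 from 4.98 ± 1.22 to 10.7 ± 0.663 and Fbln1 from 0.472 ± 0.0588 to 1.19 ± 0.0953 (mean ± SD, n = 3). The exceptions were Eln and Fbn2, whose ages overlapped. Stromal markers made up 3.18% to 6.5% of young counts and 2.41% to 2.99% of old ones. These ratios are descriptions and were given no test.

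Other components of elastic fibres, from a list of 22 genes of which 21 matched an identifier and 18 were tested, rose in 4 cases and fell in 1 (median log2 fold change 0.39). Efemp1, which encodes fibulin-3, was at 1.46, 3.39 and 2.76 CPM in young and 21.8, 21.1 and 28.3 CPM in old libraries, a 9.35-fold rise (log2 fold change 3.22, SE 0.31, adjusted p = 0.00137). Fbln7, a further fibulin, rose 9.24-fold, from 0.994 ± 0.297 to 9.20 ± 1.09 CPM (adjusted p = 0.00084). Both calls held on leaving out each library. Adamtsl5, a microfibril-binding protein, rose 1.51-fold (adjusted p = 0.0243), and so did Ltbp1, a latent TGF-beta binding protein that binds fibrillin, 1.80-fold (adjusted p = 0.0245; named after its value was seen). The Adamtsl5 and Ltbp1 calls held when young replicate 3 was left out and ended when any other single library was, with adjusted p up to 0.0916 and 0.0969.

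Mfap4, a microfibril-associated glycoprotein, was read 25, 13 and 31 times in young libraries and 0 times in every old one. With the old group as a whole set to 3 counts, it was at least 26.2-fold lower, a bound for counting error only (adjusted p = 0.0142, and 0.0598 on leaving out young replicate 1). The other 13 tested components did not pass, and Adamtsl2 had 0 counts in all 6 libraries. Without young replicate 3, 10 components rose and 1 fell, among them Ltbp2, a relative of Ltbp1, at a log2 fold change of 2.09 (1.49 and adjusted p = 0.0535 with all libraries). With all libraries Ltbp2 also passed with upper-quartile factors, the DESeq2 test and limma-voom (adjusted p = 0.0477, 0.0294 and 0.0291).

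**Figure D4:**
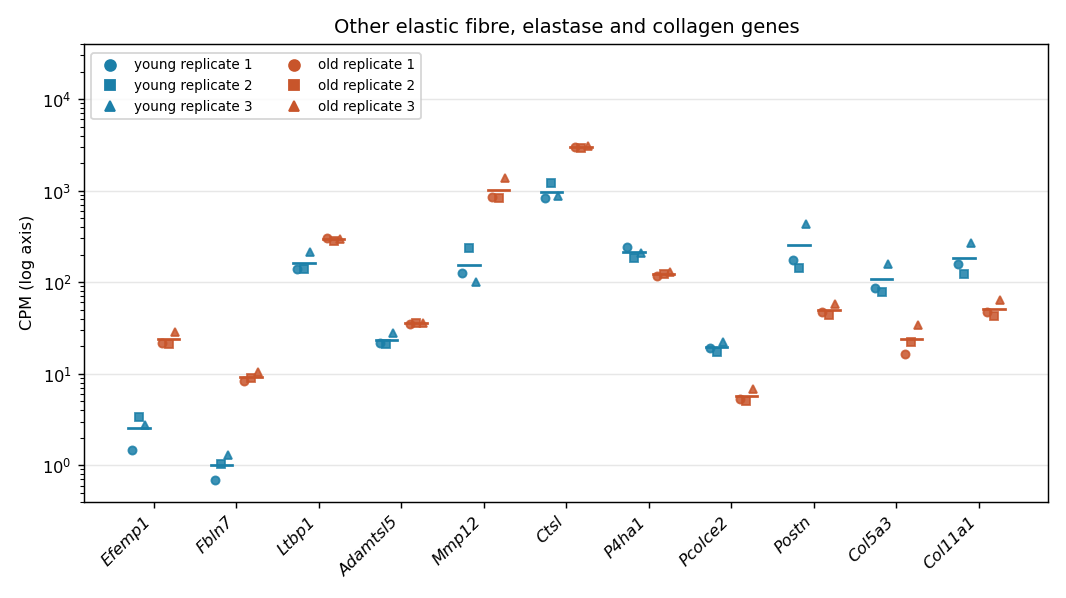
Level in CPM on a log axis of other elastic fibre genes (Efemp1, Fbln7, Ltbp1, Adamtsl5), elastin-degrading proteases (Mmp12, Ctsl), P4ha1, Pcolce2, Postn and the collagens Col5a3 and Col11a1, by library, with lines at the mean of 3. The first 6 genes are higher in every old library than in any young one and the remaining 5 are lower.

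Of the proteases that can cut elastin, Mmp12, macrophage elastase, had the largest fold change of those tested, though not the highest level. It was at 126, 235 and 99.3 CPM in young and at 856, 834 and 1365 CPM in old libraries, a 6.64-fold rise (log2 fold change 2.73, SE 0.36, adjusted p = 0.00459). In the same libraries 10 of 12 macrophage markers were lower, and their part in this difference was not tested. Ctsl, the lysosomal cathepsin L, was more abundant than Mmp12 and rose 3.05-fold, from 976 ± 206 to 2981 ± 63.1 CPM (adjusted p = 0.00133). Of its exon length, 26.8% is shared with Gm47123 on the opposite strand. Of 9 proteases tested these 2 rose and 0 fell, and Mmp7 had 0 counts throughout. Among 8 genes of elastin receptors, 0 were called with edgeR (1 at an unadjusted p under 0.05), 1 with the DESeq2 test and 2 without young replicate 3. The most abundant of them, Itgb1 and Itgb5, integrin beta chains, had log2 fold changes of -0.15 and 0.41.

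Fibrillar collagens are the other substrate of lysyl oxidases. Of the 9 fibrillar collagen genes listed here, 3 were called lower and 0 higher, with a median log2 fold change of -1.002. Without young replicate 3, 4 were called lower and 1 higher. The latter was Col2a1, the cartilage collagen, at a log2 fold change of 1.64 (adjusted p = 0.00167), against 0.77 with all libraries (adjusted p = 0.412). Col5a3 went from 107 ± 42.8 to 24.2 ± 9.22 CPM (adjusted p = 0.0108), Col11a1 fell 3.57-fold by its log2 fold change of -1.84 (adjusted p = 0.0106), and Col11a2 had a log2 fold change of -3.40 at a low level (adjusted p = 0.0307, and 0.0536 with limma-voom). The Col5a3 call ended without old replicate 2 (adjusted p = 0.0574), the Col11a1 call without old replicate 1 or 2 (up to 0.0571), and the Col11a2 call when replicate 1 or 3 of either age was omitted (up to 0.128). Col1a1 and Col1a2 had log2 fold changes of -1.002 and -0.85 and did not pass (adjusted p = 0.0783 and 0.158), with each old library below each young one. Without young replicate 3 these were -0.57 and -0.37, and Col1a1 passed (adjusted p = 0.0191).

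Of 17 genes that modify or fold collagen chains, 1 fell and 0 rose (median log2 fold change -0.26). P4ha1, a prolyl hydroxylase subunit, fell 1.73-fold, from 213 ± 29.2 to 123.3 ± 6.63 CPM (adjusted p = 0.00596). The lysyl hydroxylases Plod1, Plod2 and Plod3, which prepare collagen lysines for crosslinking, had log2 fold changes of -0.48, -0.29 and -0.02 and did not pass (adjusted p = 0.0624, 0.104 and 0.963), while Plod1 passed without young replicate 3 (adjusted p = 0.016).

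Genes that mature lysyl oxidase, supply its copper or bind it included 3 lower and 0 higher of 9 tested. Slc31a1, the copper importer, went from 242 ± 27.9 to 158 ± 3.73 CPM (adjusted p = 0.00899, and 0.0524 on leaving out old replicate 2). Postn, periostin, which binds the enzyme that processes Lox, had a log2 fold change of -2.35 (adjusted p = 0.0142), and -1.69 without young replicate 3. Omitting old replicate 1 or old replicate 2 ended its call, with 0.073 as the higher adjusted p. Pcolce2, an enhancer of procollagen processing, went from 19.6 ± 2.56 to 5.71 ± 1.00 CPM (adjusted p = 0.00149). Bmp1, the protease that removes the propeptide of Lox, and Atp7a, the pump that loads it with copper, had log2 fold changes of -0.83 and -0.12 and did not pass (adjusted p = 0.11 and 0.584), while Bmp1 passed without young replicate 3 (adjusted p = 0.0251).

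Of 14 genes of the TGF-beta axis, which acts on many matrix genes, 4 rose and 2 fell (median log2 fold change 0.03). Ccn2, connective tissue growth factor, rose 3.52-fold, from 548 ± 241 to 1929.9 ± 90.4 CPM (adjusted p = 0.00965), with 23.2% of its exon length shared with Gm15270 on the opposite strand. Tgfbr3, the co-receptor betaglycan, rose 2.61-fold (adjusted p = 0.00124) and the signal transducer Smad3 1.76-fold (adjusted p = 0.00673), while the matrix protein gene Tgfbi fell 1.71-fold (adjusted p = 0.00725). In the same libraries the summed smooth muscle and myofibroblast markers were at 2582 to 3451 CPM in young and 4619 to 5147 CPM in old cultures, and their part in these differences was not tested.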

How the data were processed

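RNA sequencing counts of 6 libraries were analysed, 3 per age. The deposited values are whole-number counts per Ensembl gene identifier. The submitters' processing notes list cutadapt 1.18, STAR 2.6.1a, HISAT2 2.1.0 and StringTie 1.3.4d with the mm10 build. How reads were counted, with which annotation release and strand setting, is not stated in those notes or the labels. Total counts are 34391206 to 43367734 per library. The libraries carry no molecular identifiers, so the floor for Mfap4 covers counting error only.

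Symbols matched 37607 of 39017 identifiers. Counts were fitted over the whole table with edgeR 4.0.16 in R 4.3.3, using its robust quasi-likelihood test after filterByExpr and TMM scaling. Adjustment was by Benjamini-Hochberg over 15567 genes, with a threshold of 0.05. CPM uses TMM-scaled library sizes, and levels per kilobase divide CPM by the merged exon length in GENCODE M21. Each SE was taken from the size of the log2 fold change over the root of its F statistic, and the 95% interval uses a t quantile at the moderated total degrees of freedom, from scipy 1.17.1. The fit was also run on simulated counts with no library set apart, so that run does not cover the effect of young replicate 3. Its outcome is not reported here.

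Other tests tried were DESeq2 (1.42.0), limma-voom (limma 3.58.1), a non-robust dispersion and a block for the replicate number. Other scalings were upper-quartile, DESeq2 size factors and TMM with the 50 most abundant genes left out. Low counts were also left unfiltered, or filtered at 50 counts in 3 libraries, and each library was omitted in turn. These alternatives were added for the other gene lists after the data were examined. The members, the 7 lists of related genes and the 7 lists of cell markers were chosen with earlier results of these data known. The rule for names took, from every list, at most 4 called genes by lowest p, the 2 of highest level where no gene was called, and the 5 genes most like Eln. Not every marker gene that this rule picks is described. Other genes were chosen after their values were seen. Promoter windows are from RefSeq (GRCm38.p6). Correlations between members and protein features are not reported here.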

Additional observations from a re-analysis of the deposited data

How the results depend on the processing

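Leaving out 1 library gave 0 to 3 higher and 0 to 1 lower of the 10 genes, the 3 being without young replicate 3, and 418 to 1459 higher and 294 to 1168 lower genes over all tested. Log2 fold changes ranged over these fits from -0.32 to 0.15 for Eln, -0.43 to 0.0782 for Fbn1, -0.94 to -0.76 for Fbn2, 0.27 to 1.09 for Fbln1, -0.79 to 0.0172 for Fbln2, -0.0013 to 0.33 for Fbln5, -0.0241 to 0.11 for Lox, 0.27 to 0.60 for Loxl1, -0.19 to 0.29 for Loxl2 and 0.40 to 0.69 for Loxl3, and for Plod3, a gene outside the 10, from -0.1486 to 0.2246. Calls ranged from 2 to 11 for elastic fibre components, 1 to 3 for collagen modification, 1 to 5 for collagens, 1 to 4 for lysyl oxidase maturation, 2 to 3 for proteases, 0 to 2 for elastin receptors and 4 to 10 for the TGF-beta axis. In each of these lists the highest number, in some shared with another library, came without young replicate 3.

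The DESeq2 test called 1 of the 10 genes higher (Loxl3, log2 fold change 0.52), 1331 higher and 1137 lower genes over all tested, and 8 elastic fibre components, 2 collagen modification genes, 6 collagens and 1 elastin receptor gene. Among those it called and edgeR did not were Col1a1, Col1a2, Bmp1 and Plod1 (adjusted p from 0.0024 to 0.0254). With limma-voom the log2 fold change of Loxl2 turned to 0.0165 and that of Plod3 to 0.0116. Same-numbered libraries of both ages had correlations of 0.088, 0.034 and 0.090 in their deviations from the age means. Each library matched its own number best, though young replicate 2 had 0.018 with old replicate 1. Nothing in the labels pairs the libraries, and values this small cannot decide whether they are paired. With a replicate block, 0 of the 10 genes were lower, as Fbn2 (log2 fold change -0.87) had an adjusted p of 0.0509, Loxl2 turned to 0.0157 and Plod3 to 0.0114, Mfap4 and Col11a2 were not called (adjusted p = 0.0543 and 0.1), Ltbp2 and Plod1 were (adjusted p = 0.0207 and 0.0482), 2 collagen modification genes were called, and 711 higher and 575 lower genes over all. The cause of these shifts was not tested. The other scalings and filters kept the direction and call of each of the 10 genes. Eln, with 73 to 178 counts per library, had an SE of 0.32.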
